A study of Mus musculus with 11 samples.

Results

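Many mouse genes still carry a provisional symbol, either Gm followed by a number or a clone name that ends in Rik, because no function or gene family had given them a name. In mouse granulosa cells, 209 such genes had a mean of at least 5 CPM (read counts scaled to a fixed library size) over 6 RNA-seq libraries, out of 3040 Gm and Rik genes among the 24809 gene IDs measured. They comprised 28 Gm and 181 Rik genes. By their annotated type, 132 were protein coding, 67 were long noncoding RNAs (lncRNAs) and 10 were transcribed pseudogenes. The members were chosen by their mean RNA level, which is therefore given only as a description, while the difference between the groups and the histone mark were not used in the choice.

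A provisional symbol says nothing about whether a gene makes a protein. Several Rik genes have a well-studied human counterpart under another name, others make an RNA that carries a microRNA or a small nucleolar RNA (snoRNA) inside it, and many lncRNAs start close to a protein-coding gene and run away from it on the other strand. Trimethylation of histone H3 at lysine 4 (H3K4me3) marks the start sites of active genes and is deposited most strongly at promoters rich in CpG. Where a pair of genes starts back to back, both share the marked stretch of chromatin.

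Granulosa cells line and fill the ovarian follicle, make oestradiol, and respond to follicle-stimulating hormone (FSH) while the follicle grows. The cells had been released by puncturing follicles of C57BL/6 mice. RNA-seq covered 3 libraries of untreated mice (0 h) and 3 of mice given equine chorionic gonadotropin (eCG), a hormone that acts on the FSH receptor in mice, 48 h before, all labelled postnatal day 21. H3K4me3 ChIP-seq covered 2 libraries at 0 h and 2 at 48 h of the same strain, with no age in the labels, and its protocol text calls the hormone FSH. No untreated group was labelled 48 h, so the hormone and the passage of 48 h cannot be told apart. The labels do not say whether animals were pooled or which libraries came from separate animals, so p-values measure only the spread between these libraries.

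RNA libraries held 12013849 to 26343971 counts and H3K4me3 libraries 11989769 to 17968033. All 13 granulosa markers examined were detected, and their summed level was 23703 to 29908 CPM at 0 h and 55724 to 57693 CPM at 48 h. Some markers of other cells were called different between the groups. Summed endothelial markers were 97.6 to 102 CPM at 0 h and 565, 185 and 223 CPM at 48 h, with 8 of 9 genes called higher. Red-cell markers were 68.5 to 129 CPM at 0 h and 544, 164 and 685 CPM at 48 h, with 3 of 6 called higher and the globin genes Hba-a1, Hbb-bs and Hbb-bt at 0. Oocyte markers were 97.1 to 110 CPM at 0 h and 99.5, 38.3 and 39.0 CPM at 48 h, with 5 of 12 called lower. The oocyte sums thus overlapped between the groups through 48 h library 1. Theca markers, several of which stimulated granulosa cells also make, were 3260 to 4886 CPM at 0 h and 8471 to 10178 CPM at 48 h, with 3 of 9 called higher and 3 lower. Sums also overlapped between the groups for immune cells (185 to 303 CPM at 0 h, 149 to 259 CPM at 48 h), smooth muscle (250.3 to 287 CPM and 156 to 364 CPM) and surface epithelium (141 to 224 CPM and 151 to 230 CPM). Their part in the changes below was not tested. Fewer cells of a type and less RNA per cell cannot be told apart in such samples.

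The promoters of 4 members are shown because their results recur below: the largest RNA rise, the strongest joint fall of RNA and H3K4me3, the joint fall at a promoter poor in CpG, and a lncRNA whose RNA and H3K4me3 went opposite ways. Each runs from 250 bases before to 50 bases after the annotated start on the gene's own strand (RefSeq, build GRCm38.p6). Capitals mark the GC box GGGCGG or its reverse complement, and in C230035I16Rik the TATA box TATAAA or its reverse complement.
6430548M08Rik, chr8:120113902-120114201, plus strand: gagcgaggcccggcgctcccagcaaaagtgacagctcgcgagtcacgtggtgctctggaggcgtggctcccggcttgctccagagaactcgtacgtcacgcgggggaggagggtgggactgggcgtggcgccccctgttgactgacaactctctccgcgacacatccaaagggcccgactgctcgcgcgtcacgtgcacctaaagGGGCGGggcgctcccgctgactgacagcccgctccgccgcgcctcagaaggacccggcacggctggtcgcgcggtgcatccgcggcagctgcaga
C130074G19Rik, chr1:184882987-184883286, minus strand: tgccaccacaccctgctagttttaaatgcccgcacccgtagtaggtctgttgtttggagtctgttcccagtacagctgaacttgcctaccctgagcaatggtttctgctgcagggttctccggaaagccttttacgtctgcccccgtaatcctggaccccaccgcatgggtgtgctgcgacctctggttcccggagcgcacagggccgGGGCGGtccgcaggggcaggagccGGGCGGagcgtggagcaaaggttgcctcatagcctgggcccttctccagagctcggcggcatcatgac
C230035I16Rik, chr13:23430968-23431267, minus strand: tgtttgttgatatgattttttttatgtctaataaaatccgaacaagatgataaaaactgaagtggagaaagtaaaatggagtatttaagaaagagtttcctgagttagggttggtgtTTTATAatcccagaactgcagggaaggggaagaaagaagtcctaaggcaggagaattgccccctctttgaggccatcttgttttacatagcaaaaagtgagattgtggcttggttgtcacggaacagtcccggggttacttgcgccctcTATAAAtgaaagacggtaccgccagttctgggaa
Gm5577, chr6:87981433-87981732, plus strand: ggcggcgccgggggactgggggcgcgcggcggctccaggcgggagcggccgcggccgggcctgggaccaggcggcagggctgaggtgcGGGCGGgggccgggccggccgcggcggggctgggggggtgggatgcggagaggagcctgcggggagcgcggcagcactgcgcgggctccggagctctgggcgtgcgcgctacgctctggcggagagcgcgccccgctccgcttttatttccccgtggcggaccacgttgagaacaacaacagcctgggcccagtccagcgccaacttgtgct

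These promoters held 35, 17, 6 and 40 CpG dinucleotides in the order shown, and their GC content was 69.7%, 61.7%, 41% and 77.7%. Among the 169 members with a promoter in the RefSeq table, the median was 23 CpG and 61.7% GC. The median over 8904 other genes at 5 CPM or more was 22 CpG and 61.7% GC, and over all 27025 promoters it was 7 CpG and 52.7% GC. A GC box stood on either strand in 108 member promoters (63.9%), against 67.8% of promoters of other expressed genes and 35.9% of all promoters. TATAAA stood in 10 (5.92%, against 6.49% and 14.2%). The cyclic AMP response element TGACGTCA, a site bound by CREB downstream of the FSH receptor, stood in 7 (4.14%, against 3.38% and 1.85%), and AAGGTCA, the site of the steroidogenic NR5A receptors, in 6 (3.55%, against 2.86% and 4.65%). Member promoters therefore had a base composition like that of other expressed genes. These matches describe letters in a window of 300 bases and not binding.

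The RNA level of the members spanned 5.02 to 344 CPM with a median of 13.5 CPM. Of the 209, 77 lay under 10 CPM and 10 reached 100 CPM, of which 9 were protein coding. The median was 20.3 CPM for protein-coding members, 8.02 CPM for lncRNAs and 11.2 CPM for pseudogenes. These are shares of reads per gene, not per length. Just inside the threshold lay C130046K22Rik (5.02 CPM), Gm6712 (5.04 CPM) and 1500009L16Rik (5.07 CPM), and just outside it 1700048O20Rik (4.97 CPM), Gm5113 (4.90 CPM) and 5430405H02Rik (4.84 CPM). In 188 members both group means reached 5 CPM. Another 19 passed through the 0 h group and 2 through the 48 h group, and 9 and 1 of them were called different between the groups. A member that entered through 1 group alone had to be higher there, so counts are also given without these 21.

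Levels between libraries are given from here on as normalised read counts, in CPM after TMM scaling, in the order of the libraries. The 8 highest members were all protein coding. At the top, 9530068E07Rik (Kct2, a membrane protein first described in keratinocytes) had 288, 252 and 272 CPM at 0 h and 462, 417 and 397 CPM at 48 h. 2610507B11Rik, the counterpart of human KIAA0100, had 326, 324 and 332 CPM at 0 h and 325, 330 and 298 CPM at 48 h. The first gene rose and the second did not pass the test (log2 fold change -0.05 ± 0.09 SE, adjusted p = 0.722). 2510039O18Rik, the counterpart of KIAA2013, had 174, 153 and 183 CPM at 0 h and 210, 216 and 202 CPM at 48 h. C130074G19Rik, the counterpart of human C1orf115, had 299, 245 and 219 CPM at 0 h and 132, 109 and 118 CPM at 48 h. Of the other 4, 2700081O15Rik (ZFTA, a zinc-finger gene known from fusions in ependymoma) was called lower, and 1110032F04Rik, B230219D22Rik and 4932438A13Rik (KIAA1109, a bridge-like lipid transfer protein) did not pass the test, with log2 fold changes of 0.09 to 0.11. The highest lncRNA was C430049B03Rik, the host of a microRNA cluster described below.

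H3K4me3 is given as the deposited count of each gene, whose window is not given in the sources used here. Of the 209 members, 205 had such a count, with a median of 72.7 CPM over the 4 libraries. The median was 100 CPM for lncRNAs and 67.0 CPM for protein-coding members, the opposite order to their RNA. Among members of known strand, it was 103 CPM for lncRNAs with another gene starting within 1000 bp on the opposite strand. For lncRNAs without such a start it was 64.8 CPM. Protein-coding members of known strand had 68.3 CPM, and those with such a start 93.6 CPM. Across members the rank correlation of RNA and H3K4me3 levels was 0.12 (n = 205), and it was 0.37 within the 130 protein-coding members, -0.05 within the 65 lncRNAs and 0.59 over all 14357 genes tested in both assays. Neighbouring genes can share reads, so these points are not independent. The 6 highest H3K4me3 counts all belonged to lncRNAs. At the top, 5031425E22Rik had 277 and 293 CPM at 0 h and 301 and 294 CPM at 48 h, and the overlapping gene Kmt2e, itself an H3K4 methylation reader, held counts within 20% of these in every library. Like counts from a gene within 5000 bp were found for 88 of the 205, so that their H3K4me3 cannot be assigned to the member alone.

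**Figure D1:**
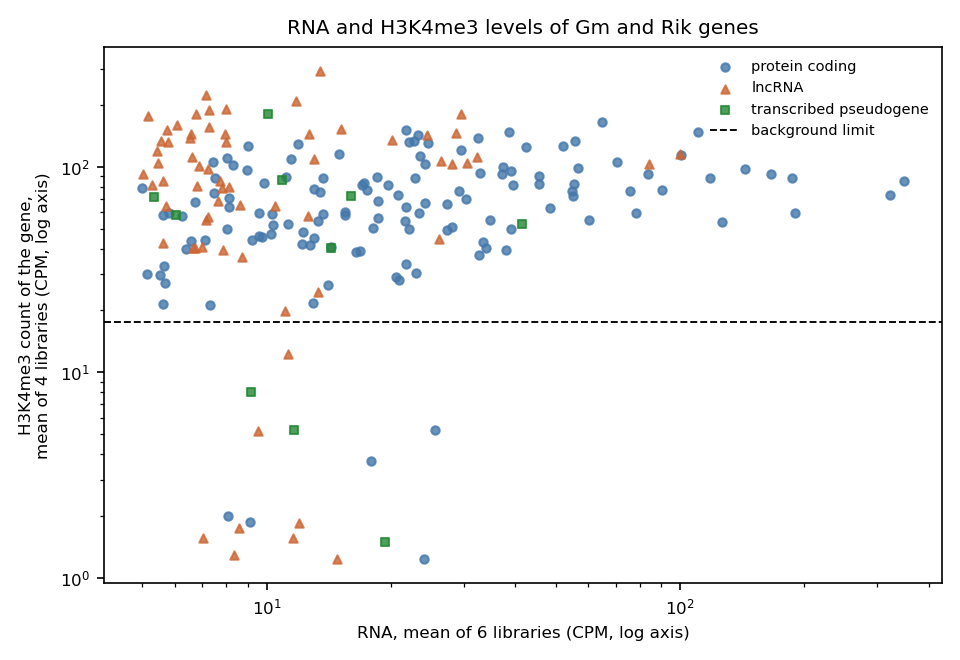
Mean RNA level over 6 libraries (x axis, CPM, log scale) against mean H3K4me3 count over 4 libraries (y axis, CPM, log scale) for the 205 Gm and Rik genes with both, marked by gene type. The dashed line is the background limit of 17.5 CPM, which 16 members did not exceed, and lncRNAs crowd the upper left with high H3K4me3 at low RNA.

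A background limit was set at the 95th percentile of the H3K4me3 count among 5129 genes with no RNA count in any library, 17.5 CPM. At or under it lay 16 members, 5 protein coding, 8 lncRNAs and 3 pseudogenes, although each had at least 5 CPM of RNA. The limit depends strongly on the percentile, since 11 members lay at or under the 90th (4.37 CPM) and 153 at or under the 99th (104 CPM). Gm7694 had 24.8, 27.2 and 38.1 CPM of RNA at 0 h and 18.6, 18.5 and 17.2 CPM at 48 h, yet only 1.79 and 0.997 CPM of H3K4me3 at 0 h and 0.960 and 1.18 CPM at 48 h. 4933427D14Rik, the counterpart of the centriolar satellite gene KIAA0753, had 27.3 to 32.1 CPM of RNA at 0 h and 4.74 to 5.95 CPM of H3K4me3. Txndc17, which starts 72 bp from it on the other strand, held 132 CPM of H3K4me3 at 0 h and 133 CPM at 48 h. A low count in this table can thus stand beside a high one for a start close by. Gm10336, which overlaps Mtr (methionine synthase), and Gm6548, which overlaps Eif2ak2 (the kinase PKR), had RNA of 12.3 to 17.4 CPM and 17.9 to 21.6 CPM with H3K4me3 under 2 CPM in every library. Reads of the overlapping gene and of the member cannot be told apart there without strand. The 12 of these 16 with a promoter sequence had a median of 3 CpG and 50.2% GC, against 24 CpG and 62.3% GC in the 153 above the limit. The rank correlation of CpG number with H3K4me3 over all 165 was 0.42.

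After eCG, 66 members (31.6%) were called different in RNA at an adjusted p under 0.05, against a background of 31.8% of the 14401 genes tested. Of these, 20 rose (9.57%, background 16%) and 46 fell (22%, background 15.8%). Among other genes at 5 CPM or more, 18.3% rose and 17.3% fell. The 0 h and 48 h libraries did not overlap in 34 members that were above at 48 h (16.3%, background 22.1%) and 75 that were below (35.9%, background 25.8%), including all 66 called. Among the 188 members at 5 CPM or more in both group means, 19 rose (10.1%) and 37 fell (19.7%), against 17.9% and 16.9% of 10722 other genes so chosen. The median log2 fold change was -0.13 over members and -0.03 over all genes tested. The counts depend on scaling and on single libraries. Library size alone gave 10 rises and 80 falls, so that 11.1% of member calls were rises in place of 30.3%, while that share over all genes moved from 50.2% to 26.8% and the median of all genes to -0.20. Rises numbered 11, 10, 13 and 9 without 0 h library 2, 0 h library 3, 48 h library 2 or 48 h library 3. Falls numbered 28 without 0 h library 3, and also without 48 h library 2 or 3.

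Falls outnumbered rises among both protein-coding and lncRNA members. Of 67 lncRNA members, 3 rose and 20 fell, with a median log2 fold change of -0.25. Of 132 protein-coding members, 16 rose and 26 fell, with a median of -0.06, and of 10 pseudogenes 1 rose (median -0.25). The lncRNA medians of single libraries, taken against the 0 h mean, came to -0.28, -0.32 and -0.31 at 48 h. In the untreated libraries, which this reference centres, they were 0.00, 0.02 and -0.02. Members that passed the rule through the 0 h group alone were included, so the gap between the groups is not independent of the rule. The same direction was seen in lncRNAs with other names: of 62 at 5 CPM or more, 3 rose and 22 fell, with a median of -0.33. Of the 20 fallen lncRNA members, 7 had passed the rule through the 0 h group alone. Without such genes, 3 of 54 lncRNA members rose and 13 fell (24.1%, median -0.21), as did 3 and 17 of 53 other lncRNAs (32.1%, median -0.21) and 15 and 24 of 125 protein-coding members (19.2%, median -0.02). Other protein-coding genes at 5 CPM or more in both group means had a median of -0.004, with 1915 rises and 1785 falls among 10638. By the overall mean alone they numbered 10987, with 2028 rises, 1877 falls and a median of -0.01. The difference between types was not tested. With library size alone the lncRNA members gave 33 falls (median -0.42, 0.22 below that of all genes), and with DESeq2 size factors 4 rises and 20 falls (median -0.23, also 0.22 below). Among the 27 lncRNA members that overlap no other gene, 3 rose and 6 fell, with a median of -0.28. The 3 lncRNAs that rose were D430020J02Rik, E330017L17Rik (0.43) and 2610507I01Rik (0.35).

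**Figure D2:**
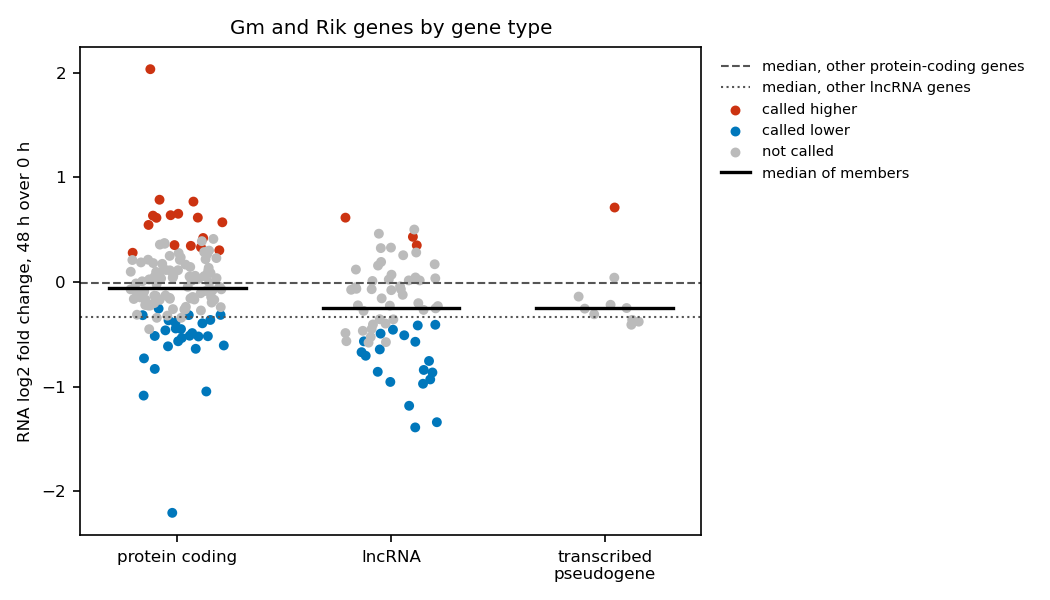
RNA log2 fold change at 48 h over 0 h (y axis) of each of the 209 Gm and Rik genes by annotated gene type, with red points called higher, blue points called lower, and black bars at the medians of -0.06, -0.25 and -0.25. Dashed and dotted lines mark the medians of other protein-coding genes (-0.01) and other lncRNAs (-0.33) at 5 CPM or more.

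The largest rise was that of 6430548M08Rik (chr8:120114152-120165307), the counterpart of human KIAA0513. It had 6.56, 9.19 and 8.28 CPM at 0 h and 47.0, 22.6 and 29.8 CPM at 48 h. Every 48 h library lay above every 0 h library, and 48 h library 1, which also had the highest endothelial sum, was the highest. The log2 fold change was 2.03 ± 0.26 (SE, n = 3 per group, adjusted p = 0.00105), or 4.09-fold. The other 9 of the 10 largest rises were between 0.61 and 0.79. 1500009L16Rik (OCC-1, a small protein first found overexpressed in colon carcinoma) had 4.11, 3.26 and 3.96 CPM at 0 h and 6.13, 6.36 and 7.05 CPM at 48 h (0.79 ± 0.19, adjusted p = 0.0134). Without 48 h library 3 its adjusted p was 0.0534. 2610524H06Rik, a short protein-coding gene, had 14.3, 10.6 and 12.5 CPM at 0 h and 19.8, 22.6 and 21.1 CPM at 48 h (0.77 ± 0.13, adjusted p = 0.00356).

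Among the rest were genes known by a human counterpart. 1810058I24Rik (Stmp1, a micropeptide of the mitochondrial inner membrane) had 51.4, 38.2 and 40.3 CPM at 0 h and 61.4, 68.9 and 68.0 CPM at 48 h (0.61 ± 0.12, adjusted p = 0.00603). 1600014C10Rik, the counterpart of human C19orf12, whose mutation causes a neurodegeneration with brain iron accumulation, had 18.8, 16.7 and 15.8 CPM at 0 h and 28.9, 24.3 and 25.4 CPM at 48 h (0.62 ± 0.11, adjusted p = 0.00457). 9530068E07Rik, with the values given above, rose by 0.65 ± 0.10 (adjusted p = 0.00215). The pseudogene Gm4926 had 9.71, 8.80 and 7.97 CPM at 0 h and 12.3, 15.4 and 15.6 CPM at 48 h (0.71 ± 0.15, adjusted p = 0.00766), and reads of its parent gene cannot be told apart from its own. 2310039H08Rik (0.64), 4930579G24Rik (0.63) and the lncRNA D430020J02Rik (0.61) completed the 10. Calls of 2310039H08Rik were lost without 0 h library 2 or 3 or 48 h library 3 (adjusted p 0.0552 to 0.0586), and those of D430020J02Rik without 0 h library 3 (0.0527) or 48 h library 3 (0.0674). The 9 risen members not named for their size or H3K4me3 spanned 0.28 to 0.57.

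The largest fall was that of 4930426D05Rik, a protein-coding gene that overlaps Klhl14 on chromosome 18. It had 7.78, 8.89 and 11.0 CPM at 0 h and 1.92, 1.40 and 2.87 CPM at 48 h (-2.20 ± 0.28, adjusted p = 0.00101). Klhl14, a Kelch-family ubiquitin ligase adaptor, fell by 1.56 on the log2 scale from 3.54 ± 0.29 to 1.23 ± 0.34 CPM (SD, n = 3, adjusted p = 0.0046). Both fell together, and reads over their overlap cannot be assigned without strand. Next came the lncRNAs E530011L22Rik and 2900005J15Rik. E530011L22Rik (chr9:121756640-121759943) had 11.2, 10.8 and 11.2 CPM at 0 h and 5.21, 4.12 and 3.31 CPM at 48 h (-1.39 ± 0.19, adjusted p = 0.0012). 2900005J15Rik (chr5:25100975-25103007) had 9.64, 11.1 and 12.3 CPM at 0 h and 5.75, 3.40 and 4.09 CPM at 48 h (-1.34 ± 0.22, adjusted p = 0.00268). In both, all 48 h libraries lay well below all 0 h libraries.

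C230035I16Rik (chr13:23427976-23431017), a lncRNA that overlaps the tRNA gene n-TYgta6, had 9.13, 12.7 and 11.5 CPM at 0 h and 5.83, 4.68 and 4.18 CPM at 48 h (-1.18 ± 0.19, adjusted p = 0.00268). C130074G19Rik (chr1:184871926-184883036), a protein-coding gene whose human counterpart C1orf115 has been linked to drug efflux, was the only one of the 10 largest falls above 50 CPM. With the values given above it fell by 1.08 ± 0.13 on the log2 scale (SE, n = 3 per group, adjusted p = 8.08e-04), a ratio of 0.472. The other 5 were 1700094D03Rik (-1.05), Gm16008 (-0.97), D030028A08Rik (-0.95), 4933439C10Rik (-0.93) and Gm5577 (-0.86), of which all but 1700094D03Rik are lncRNAs. None of the 10 lost its call under any of the 11 alternatives. However, 5 of them (4930426D05Rik, E530011L22Rik, 2900005J15Rik, C230035I16Rik and D030028A08Rik) were members through their 0 h level alone, their 48 h means being under 5 CPM by the rule. The 25 fallen members not named spanned -0.86 to -0.25.

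**Figure D3:**
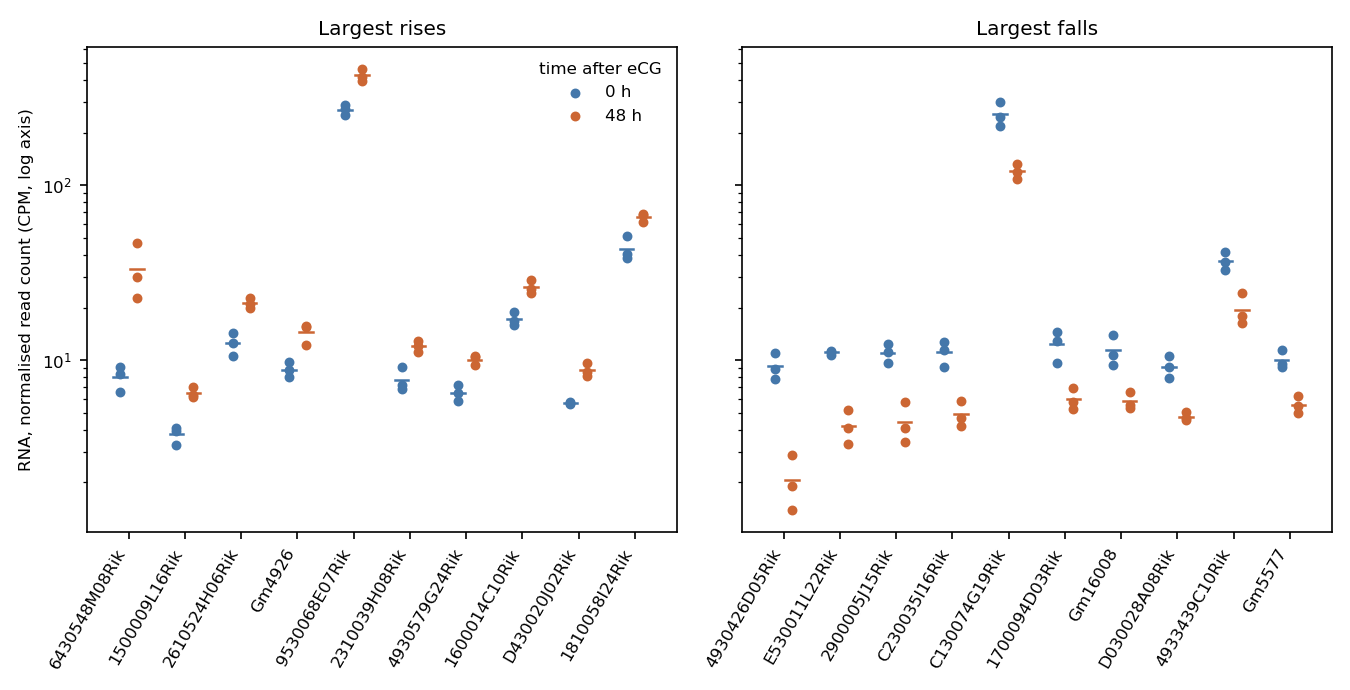
Normalised RNA read count in each library (y axis, CPM, log scale) of the 10 largest rises and the 10 largest falls among called Gm and Rik genes, with blue points for the 3 libraries at 0 h, orange points for the 3 at 48 h and bars at the group means. In all 20 genes the groups do not overlap, and 9530068E07Rik and C130074G19Rik stand above the rest in level.

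Members that share a start region with another gene allowed the RNA of both to be set side by side. In 59 members another gene started within 1000 bp on the opposite strand, 26 of 56 lncRNAs and 33 of 113 protein-coding members with a known strand. Over 50 such pairs with RNA tested in both, Pearson's r of the log2 fold changes was 0.14. In 6 pairs both genes were called in the same direction and in 2 in opposite directions, in 10 only the member and in 8 only the partner was called, and 24 had no call. In H3K4me3 the picture was different: 47 of 52 pairs had counts within 20% of each other in every library, and r was 0.80. Where counts are alike, both values may rest on the same stretch and need not be separate measurements. The window is not known, so this was not tested.

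E530011L22Rik starts 90 bp from Zfp651 and fell with it: Zfp651, a zinc-finger gene, went from 66.3 ± 2.7 to 45.0 ± 1.8 CPM (SD, n = 3, as for all partners; -0.56, adjusted p = 0.00148), a smaller fold. It also overlaps Nktr on the opposite strand, a cyclophilin-related gene that went from 163 ± 17 to 109.8 ± 5.9 CPM (-0.57, adjusted p = 0.00356). 2900005J15Rik starts 333 bp from Prkag2, a regulatory subunit of the energy sensor AMPK, which went from 115 ± 3.0 to 87.6 ± 8.2 CPM (-0.39, adjusted p = 0.0116). 2900005J15Rik overlaps Prkag2, and E530011L22Rik overlaps Zfp651, so reads shared by each pair cannot be told apart without strand. D430020J02Rik rose with Ncapg2, a condensin II subunit (0.50, adjusted p = 0.00259), and 4930579G24Rik with Etfdh, an electron transfer dehydrogenase of mitochondria (0.49, adjusted p = 0.00289). A930033H14Rik (-0.83) with Rhobtb1 (-1.04) and 2810408A11Rik (-0.64) with Neurl4 (-0.43) were the other 2 pairs called in the same direction. The pairs called in opposite directions were 1600012H06Rik (0.28) with Wdr27 (-1.80, from 1.90 ± 1.1 to 0.563 ± 0.19 CPM) and D430042O09Rik (katanin-interacting protein, -0.45) with Gtf3c1, a subunit of the RNA polymerase III factor TFIIIC (0.32). These pairs are named because their counts are small.

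**Figure D4:**
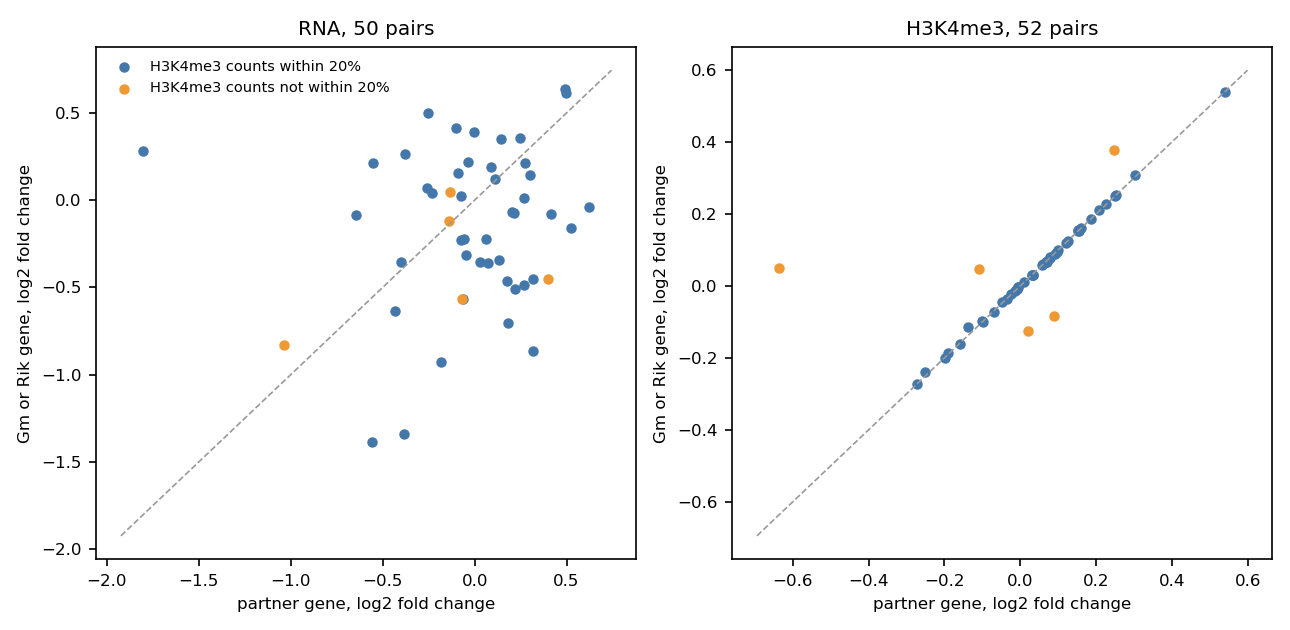
Log2 fold change at 48 h over 0 h of Gm and Rik genes (y axis) against that of the gene starting within 1000 bp on the opposite strand (x axis), in RNA (left, 50 pairs) and H3K4me3 (right, 52 pairs), with the dashed line of equality. Blue pairs, whose H3K4me3 counts lie within 20% in every library, sit on the line in H3K4me3 and scatter in RNA (r = 0.80 and 0.14 over all pairs shown).

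In H3K4me3, 23 of 205 members (11.2%) were called different, against a background of 8.42% of the 24476 genes tested and 13.7% of other genes at 5 CPM or more. Of these, 16 were higher (7.8%, background 6.35%) and 7 lower (3.41%, background 2.08%). The groups did not overlap in any of the 23, which in this design of 2 libraries a group also held for 26.5% (48 h above) and 22.8% (48 h below) of all genes tested. Protein-coding members gave 11 higher and 1 lower of 130, and lncRNAs 5 higher and 6 lower of 65. The changes were small, from 0.22 to 0.54 in log2 for rises and from -0.58 to -0.23 for falls. With 2 libraries per group the calls rest on single libraries. Without 0 h library 1, 1 member was called higher and 1 lower, and without 0 h library 2, 9 and 3. Without 48 h library 1, 5 were called higher, and without 48 h library 2, 26. Of the 18 named members called in H3K4me3, C130074G19Rik and D930048N14Rik kept their call under all alternatives, and the other 16 lost it under at least 1, in each case also without 0 h library 1. The median log2 fold change was 0.03 over members, and with library size alone 8 were higher and 15 lower.

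The largest H3K4me3 rise was at the lncRNA D930048N14Rik (chr11:51650954-51657681), with 44.0 and 46.0 CPM at 0 h and 65.5 and 65.0 CPM at 48 h (0.54 ± 0.07 SE, n = 2 per group, adjusted p = 7.75e-07). N4bp3, which starts 119 bp away on the other strand, had the same H3K4me3 change of 0.54, and its RNA rose by 0.42 (adjusted p = 0.0314). The RNA of D930048N14Rik gave -0.08 ± 0.22 (adjusted p = 0.814). The same arrangement was found at 4930581F22Rik, which starts 136 bp from St3gal4, a sialyltransferase. Its H3K4me3 rose from 160 and 164 CPM to 201 and 200 CPM (0.31, adjusted p = 0.00161) while its RNA gave -0.04, and St3gal4 RNA went from 579.8 ± 56.2 to 893 ± 120.2 CPM (0.62, adjusted p = 0.00802). In these 2 pairs the partner's RNA passed the test and the member's did not; the difference between them was not tested. 1700052K11Rik rose in H3K4me3 by 0.38 (adjusted p = 4.47e-04) with an RNA value of 0.04, beside Tlk2, whose RNA gave -0.13.

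Falls of H3K4me3 were led by C130074G19Rik, with 101 and 110 CPM at 0 h and 72.1 and 68.5 CPM at 48 h (-0.58 ± 0.07, adjusted p = 5.76e-08). 2700054A10Rik had 163 and 136 CPM at 0 h and 93.4 and 134 CPM at 48 h (-0.40, adjusted p = 0.00266), so that the closest libraries of the groups nearly touched, and its RNA gave -0.07. The other 5 were D030028A08Rik (-0.39), C230035I16Rik (-0.27), Gm6277 (-0.25), 5430416N02Rik (-0.24) and 2700038G22Rik (-0.23), all lncRNAs and all also lower in RNA. All but Gm6277 had passed the rule through the 0 h group alone, which favours a lower RNA value at 48 h.

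Both assays called 14 members (6.83% of 205, background 5.92% of 14357 genes tested in both), 11 of them in the same direction (5.37%, background 5.12%), or 6 of those at 5 CPM or more in both RNA group means. Across all 205 members Pearson's r of the RNA and H3K4me3 log2 fold changes was 0.30, as it was across all genes, and this is a description across genes that are not independent replicates. Of the 14, 5 (2.44%, background 3.56%) were higher in both, all protein coding: 6430548M08Rik, 1500009L16Rik, 2610524H06Rik, 1810058I24Rik and 2510039O18Rik. Of these, 1500009L16Rik had passed the rule through the 48 h group alone. The H3K4me3 of the 5 rose by 0.22 to 0.33. With DESeq2 the H3K4me3 calls of all 5 were lost (adjusted p 0.0945 to 0.243). At 6430548M08Rik it went from 26.5 and 25.5 CPM to 33.0 and 30.9 CPM (0.29 ± 0.09, adjusted p = 0.0333), beside its 4.09-fold rise in RNA. At 2610524H06Rik it went from 36.3 and 32.9 CPM to 42.1 and 44.9 CPM (0.33 ± 0.08, adjusted p = 0.0066). 2510039O18Rik was close to the threshold in both assays (adjusted p = 0.0375 in RNA and 0.0497 in H3K4me3), and its RNA call was lost in 5 of the 6 fits without 1 library (0.0528 to 0.128), the exception being 48 h library 1.

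A total of 6 members (2.93%, background 1.56%) were lower in both: the protein-coding C130074G19Rik and the lncRNAs C230035I16Rik, D030028A08Rik, 2700038G22Rik, 5430416N02Rik and Gm6277. Of these 6, 4 (C230035I16Rik, D030028A08Rik, 2700038G22Rik and 5430416N02Rik) had passed the rule through the 0 h group alone. Among the 188 members at 5 CPM or more in both means 2 were lower in both (1.06%), against 1.69% of other genes so chosen. C230035I16Rik, whose promoter with its TATAAA matches is printed above, had 140 and 149 CPM of H3K4me3 at 0 h and 114 and 127 CPM at 48 h (adjusted p = 0.0107). D030028A08Rik (chr11:96944146-96965060) had 9.13, 7.96 and 10.5 CPM of RNA at 0 h and 5.06, 4.64 and 4.53 CPM at 48 h. Its H3K4me3 went from 47.3 and 45.2 CPM to 34.2 and 36.4 CPM (adjusted p = 6.92e-04), while Sp2, a transcription factor gene that it overlaps on the other strand, gave 0.31 in RNA (adjusted p = 0.112) and 0.16 in H3K4me3 (adjusted p = 0.183). Gm6277 overlaps Cables1, a gene that links cyclin-dependent kinases to Abl. Cables1 RNA went from 436 ± 104 to 190.3 ± 19.5 CPM (-1.20, adjusted p = 0.00141) and its H3K4me3 from 239 to 203 CPM (-0.24), like the -0.64 and -0.25 of Gm6277. RNA calls were lost for Gm6277 without 0 h library 3 (0.0743), for 5430416N02Rik without 48 h library 2 (0.057), and for 2700038G22Rik without 0 h library 1 or 2 or 48 h library 2 (0.0806 to 0.114). With DESeq2 the H3K4me3 calls of 5430416N02Rik (adjusted p = 0.0526) and 2700038G22Rik (0.132) were lost.

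In 3 members RNA fell and H3K4me3 rose (1.46%, background 0.731%). The lncRNA Gm5577 (chr6:87981683-87984180) had 9.19, 11.4 and 9.55 CPM of RNA at 0 h and 6.21, 4.96 and 5.49 CPM at 48 h (-0.86 ± 0.17, adjusted p = 0.00566). Its H3K4me3 went from 67.6 and 77.3 CPM to 93.2 and 78.9 CPM (0.25 ± 0.08, adjusted p = 0.0318), where the closest libraries of the groups nearly touch. That H3K4me3 call was lost with DESeq2 (adjusted p = 0.195). H1f10, a linker histone gene that starts 201 bp away on the other strand, had the same H3K4me3 change of 0.25 and an RNA value of 0.32 ± 0.13 that did not pass the test (adjusted p = 0.0927). The promoter of Gm5577 printed above is thus also the region around the start of H1f10. 2700081O15Rik had 125, 130 and 145 CPM of RNA at 0 h and 102, 111 and 97.4 CPM at 48 h (-0.37 ± 0.09, adjusted p = 0.016), and 76.9 and 77.4 CPM of H3K4me3 at 0 h and 107 and 90.9 CPM at 48 h (0.36, adjusted p = 8.33e-04). It overlaps Rtn3, a reticulon of the endoplasmic reticulum, whose RNA rose by 0.71 (adjusted p = 0.00126). The H3K4me3 of Rtn3 did not pass the test, with means of 93.3 CPM at 0 h and 99.2 CPM at 48 h (0.089, adjusted p = 0.52). The difference in H3K4me3 change between 2700081O15Rik and Rtn3 was not tested. The third, 2310061I04Rik, the counterpart of human C6orf136, had an RNA value of -0.39 at an adjusted p of 0.0479 and an H3K4me3 value of 0.44 (adjusted p = 9.8e-05). The RNA call of 2700081O15Rik was lost without 0 h library 3 (0.0812) or 48 h library 3 (0.076), and that of 2310061I04Rik in 5 of the 6 fits without 1 library (0.0777 to 0.194), the exception being 48 h library 1.

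**Figure D5:**
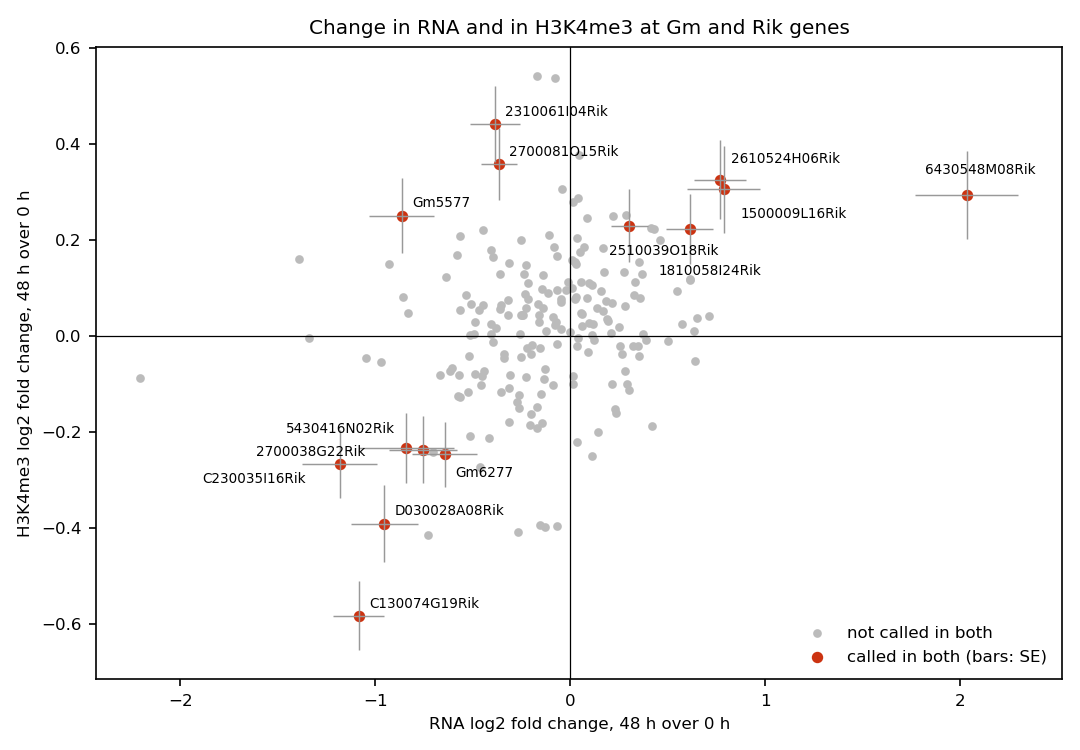
Log2 fold change at 48 h over 0 h in RNA (x axis) and in H3K4me3 (y axis) for the 205 Gm and Rik genes with both, with the 14 called in both assays in red with bars of 1 SE. The 5 joint rises sit upper right, the 6 joint falls lower left, and Gm5577, 2700081O15Rik and 2310061I04Rik upper left.

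A gene named as a microRNA or snoRNA lies within 9 members, of which 5 fell in RNA, beside 22% of all members and 15.8% of all genes tested. These 9 were chosen after their values were seen. Of the 5 that fell, 2700038G22Rik had passed the rule through the 0 h group alone. Other small RNA genes lie within 3 more members, of which Gm16008 fell. The most abundant as a noncoding RNA was C430049B03Rik on the X chromosome (chrX:53053112-53057190), the mouse counterpart of the human MIR503 host gene. It had 122, 109 and 112 CPM at 0 h and 77.9, 86.9 and 93.6 CPM at 48 h, with no overlap of the groups (-0.41 ± 0.09, adjusted p = 0.0112). Its H3K4me3 was level, with 114 and 115 CPM at 0 h and 118 and 116 CPM at 48 h (0.03 ± 0.07, adjusted p = 0.878). The microRNAs within its bounds are shown because they are what the gene is known for. miR-322 and miR-503 are known for targeting cyclins and other cell-cycle genes. The mature forms were not measured here. Capitals mark the seed, bases 2 to 8, in the RefSeq sequence.
mmu-miR-322-5p, chrX:53054306-53054327, minus strand: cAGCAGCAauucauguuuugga
mmu-miR-503-5p, chrX:53054027-53054049, minus strand: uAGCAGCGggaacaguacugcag
mmu-miR-351-5p, chrX:53053315-53053338, minus strand: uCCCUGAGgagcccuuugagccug

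Hosts of snoRNAs, which guide chemical modification of ribosomal RNA and sit in introns of their host, numbered 4, and their values are given as a description. 2410002F23Rik, with Snord88a and Snord88c, had 120, 126 and 147 CPM at 0 h and 93.2, 91.5 and 86.6 CPM at 48 h (-0.53 ± 0.10, adjusted p = 0.00413). 1110038B12Rik (SNHG32), with Snord52, had 35.9, 31.5 and 42.3 CPM at 0 h and 24.1, 25.7 and 23.9 CPM at 48 h (-0.57 ± 0.12, adjusted p = 0.00751). 2700038G22Rik, with Snord93, had 8.74, 7.51 and 5.65 CPM at 0 h and 4.29, 3.12 and 4.96 CPM at 48 h (-0.84 ± 0.24, adjusted p = 0.0302). The groups of 2700038G22Rik nearly touched, whereas those of the other 2 hosts were clearly apart. 2410006H16Rik (SNHG29), with Snord49a, Snord49b and Snord65, did not pass the test (-0.20 ± 0.14, adjusted p = 0.302). Of the other microRNA hosts, 2700081O15Rik (Mir6991) fell, and 2900076A07Rik (Mir1839, -0.52), 3110082I17Rik (Mir339, -0.17) and 5031439G07Rik (Mir1249, 0.03) did not pass the test.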

How the data were processed

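The deposited values are unnormalized read counts for each Entrez gene, 1 table for each assay, from 3 RNA-seq libraries and 2 H3K4me3 ChIP-seq libraries per group. An input library among the 11 samples was not used here. Per the submitters' processing notes, FastQC 0.11.5, Picard, STAR, kallisto and sleuth are named for RNA, and Trimmomatic, Bowtie2 2.2.9, MACS2 2.2 and ChIPseeker 1.18.0 for ChIP-seq, with build mm10. Sources used here do not give the counting program, the use of strand or the H3K4me3 window. H3K4me3 columns were matched to their group by name, and the number in the name was taken as the replicate.

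Symbols, gene types, coordinates and promoters came from RefSeq tables of GRCm38.p6, which named 24742 of 24809 RNA IDs and 24472 of 24541 H3K4me3 IDs. No transcript lengths were used. Each whole table was fitted with edgeR 4.0.16 in R 4.3.3 (TMM scaling, filterByExpr, quasi-likelihood test), 48 h against 0 h, with Benjamini-Hochberg adjustment over the 14401 RNA or 24476 H3K4me3 genes tested and calls at an adjusted p under 0.05. All 209 members passed the filter in RNA and 205 in H3K4me3. The script recovered known changes in simulated counts, all larger than any H3K4me3 change called here. Changes of the size called in H3K4me3 were not simulated. The biological coefficient of variation was 0.141 in RNA and 0.0465 in H3K4me3.

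Named members were the 8 highest, 10 largest rises and 10 largest falls in RNA, the 6 highest, 8 largest rises and 8 largest falls in H3K4me3 (only called members whose groups did not overlap, which left 7 falls), all called in both assays, and those beside the threshold. The members at or under the H3K4me3 background, those holding a small RNA gene and the pairs named for their partners were added after their values were seen. The members and lists were chosen with earlier results of these data known. Alternatives were DESeq2 1.42.0, its size factors, library size alone, no filter (at least 1 count), a replicate block, each library left out, other thresholds and only members that overlap no gene.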

Additional observations from a re-analysis of the deposited data

How the results depend on the processing

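Of 32 named members called in RNA, 22 kept their call in all 11 alternatives and 10 lost it in at least 1; of 18 called in H3K4me3, 2 kept it in all 10 and 16 lost it. No called value reversed; 13 RNA and 19 H3K4me3 values that were not called changed sign in at least 1. From 20 RNA rises, 46 RNA falls, 16 H3K4me3 rises and 7 H3K4me3 falls, library size alone gave 10, 80, 8 and 15, and medians of -0.30 in RNA (from -0.13) and -0.022 in H3K4me3 (from 0.03). DESeq2 gave 6 and 4 in H3K4me3 and 4 members called in both in the same direction (from 11), and no filter gave 12 H3K4me3 falls. Leaving out 1 library gave 9 to 26 RNA rises, 28 to 50 RNA falls, an RNA median of -0.12 to -0.090, 1 to 26 H3K4me3 rises, 1 to 9 H3K4me3 falls, an H3K4me3 median of -0.0043 to 0.058, and 1 to 13 called in both. Only members that overlap no gene gave 21 RNA falls, a median of -0.088, 9 H3K4me3 rises and 1 fall. Members at 5 CPM or more in both group means, a choice made after seeing the data, gave an RNA median of -0.082, 3 H3K4me3 falls and 6 called in both in the same direction. A threshold of 2 or 10 CPM gave 344 or 132 members, and the 99th percentile put 153 at or under background. The cause of these moves was not tested.

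With the replicate block there were 11 RNA rises, 28 falls, 6 H3K4me3 rises, 3 falls and 3 called in both. The numbers do not pair the RNA libraries (same-number correlations of -0.24, -0.13 and -0.22). In H3K4me3 that correlation was -0.38, and the crossed replicate block, chosen after seeing the data, gave 33 rises and 17 falls.

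With 2 H3K4me3 libraries per group, most of these small changes cannot be held apart from library differences. Without strand, reads of overlapping genes cannot be told apart.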
